A study of Homo sapiens with 3 samples.

Results

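The comparison set the 28S ribosomal RNA of HEK293 cells treated with RiboBright directly against that of cells treated with cycloheximide. It covered every adenosine and cytidine with a mutation signal in both libraries, which were 1838 of the 2492 A and C of this RNA. The labels give HEK293, a line from human embryonic kidney, as the cell line, and HEK293T/17, a derivative with the SV40 large T antigen, in the growth protocol. Cells received 10 µM RiboBright or 10 µM cycloheximide in fresh medium for 30 min. The solvent control of the series, 1 library from cells given DMSO alone, did not enter any value here. Each treatment had 1 library, so every difference below is a size without a replicate check, no p-value was computed, and the values compare these libraries, not the treatments.

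Dimethyl sulfate methylates adenosine and cytidine on the face that forms base pairs, so only bases that are unpaired and uncovered react well. In mutational profiling, reverse transcriptase misreads the methylated base, and the frequency of misreading is taken as accessibility. The 28S rRNA is the large RNA of the 60S subunit. It forms the peptidyl transferase centre, the E site through which spent tRNA leaves, and the sarcin-ricin loop where elongation factors bind, and it carries long GC-rich expansion segments that face the cytoplasm. Cycloheximide stops elongation by occupying the E site, where it contacts C4341. RiboBright is a ribosome probe whose structure is not given in the labels.

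The stretches of 28S rRNA on which the comparison turns read as follows, 5′ to 3′, with T for U as in the deposited table. They are the E site, the sarcin-ricin loop, the surroundings of the natural N1-methyladenosine A1322, and the places of some of the larger differences. Capitals mark C4341, C4365, A4605, the pair A1322 and A1326, and otherwise the bases that passed the rule of size described below.
E site, G4331 to U4351: gcctcacgatCcttctgacct
E site, U4360 to A4380: ttaagCaggaggtgtcagaaa
Sarcin-ricin loop, A4590 to U4620: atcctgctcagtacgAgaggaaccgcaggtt
Around A1322 and A1326, A1312 to G1336: acccgtcttgAaacAcggaccaagg
Around A408, nt 398 to 418: agagagttcaAgagggcgtga
Around C936 and C946, nt 926 to 956: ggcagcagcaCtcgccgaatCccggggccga
Around C1182 and C1197, nt 1172 to 1207: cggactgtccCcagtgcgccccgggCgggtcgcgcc
Around C3566 and C3567, nt 3556 to 3577: ggccgcggttCCgcgcggcgcc
Around C4029, nt 4019 to 4039: gtccgccggcCctgcgggccg
Around C4693, nt 4683 to 4703: tatgactgaaCgcctctaagt
Positions count from the 5′ end of the RNA in the deposited table, whose length equals that of RNA28SN5 in the RefSeq gene table. Near-identical copies lie on chromosomes 21 and 22 in that table, and a position stands for the pool of copies.

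The 28S profiles under the 2 compounds had the same landmarks. The 20 positions with the highest signal in RiboBright and the 20 in cycloheximide were the same positions. Of the 184 highest positions of each, the top decile, 159 were shared (86.4% of each list). Natural modifications such as A1322 remain in the signal, so a shared peak need not be shared accessibility. A1322 led both, at 18.991 in RiboBright and 18.729 in cycloheximide. A4523, at 9.803 and 8.216, and A1964, at 8.309 and 8.440, came next in both. Across these 20 positions the log2 ratio of RiboBright to cycloheximide lay between -0.36 at C1367 and 0.17 at C3788, with a median of -0.14. The 7 adenosines and 13 cytidines among them held 20.1% of the summed signal in either library. The highest peaks of the map therefore differed by less than 1.5-fold between the compounds.

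All ratios were taken after dividing each library by the median of its values above 0 over the 1838 positions. This median was 0.114 in RiboBright and 0.104 in cycloheximide, so a scaled signal of 1 is a typical nucleotide of its library. The scaling lowered the median log2 ratio of RiboBright to cycloheximide by 0.12. Log2 ratios carry a pseudocount of 0.1 in these units and understate differences at low signal. Over all 1838 positions the median log2 ratio was -0.16, and 1123 (61.1%) were below 0. RiboBright was listed at exactly 0 at 114 positions (6.20%) and cycloheximide at 9 (0.490%), 6 of them shared. Without scaling the median was -0.04, and scaling by a median that counts the zeros gave -0.02, so the sign of a ratio near 0 depends on the scaling.

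The Pearson correlation of log2 signals was 0.882 and the Spearman correlation 0.871. These are descriptions across 1838 positions of 1 RNA, which share both libraries and are not independent. The top quartile of mean scaled signal began at 2.23, which equals a signal of 0.255 in RiboBright and 0.232 in cycloheximide. This level served as a floor for the mean of both libraries, so 1 library could lie below it. The floor left 460 positions. Past it the ratio had a median of -0.07 and a robust SD of 0.36, and its middle 95% ran from -0.96 to 0.86. Of the 460, 400 lay within 1.5-fold (87.0%) and 442 within 2-fold (96.1%).

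**Figure D1:**
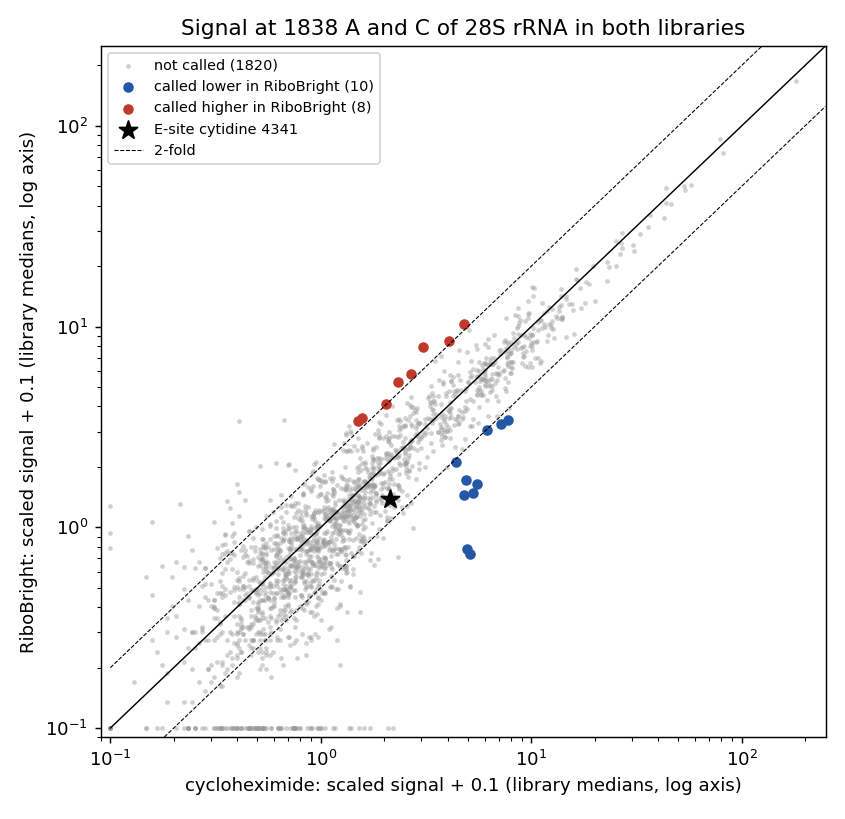
Each point is 1 of the 1838 A and C of 28S rRNA, with scaled signal plus 0.1 in cycloheximide on the horizontal and in RiboBright on the vertical log axis. The solid line marks equal signal and dashed lines 2-fold; the cloud narrows toward high signal, 10 positions called lower and 8 called higher lie outside the dashed lines, and a row of points at the bottom holds the positions listed at 0 in RiboBright.

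How closely the libraries matched depended on the level. In the lowest decile of mean scaled signal the robust SD of the log2 ratio was 1.26 and 46.2% of positions were past 2-fold, while RiboBright was at 0 at 82 of 184. The share past 2-fold was 4.89% in the sixth decile, with a robust SD of 0.42, and was higher again in the eighth, at 9.78% and 0.44. In the highest decile it was 0.27, and 2 of 184 positions (1.09%) were past 2-fold. Those 2 were A408 and C936, both higher in RiboBright. Over the whole RNA 289 positions (15.7%) were past 2-fold, 216 of them lower in RiboBright, and 18 of the 289 lay past the floor.

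**Figure D2:**
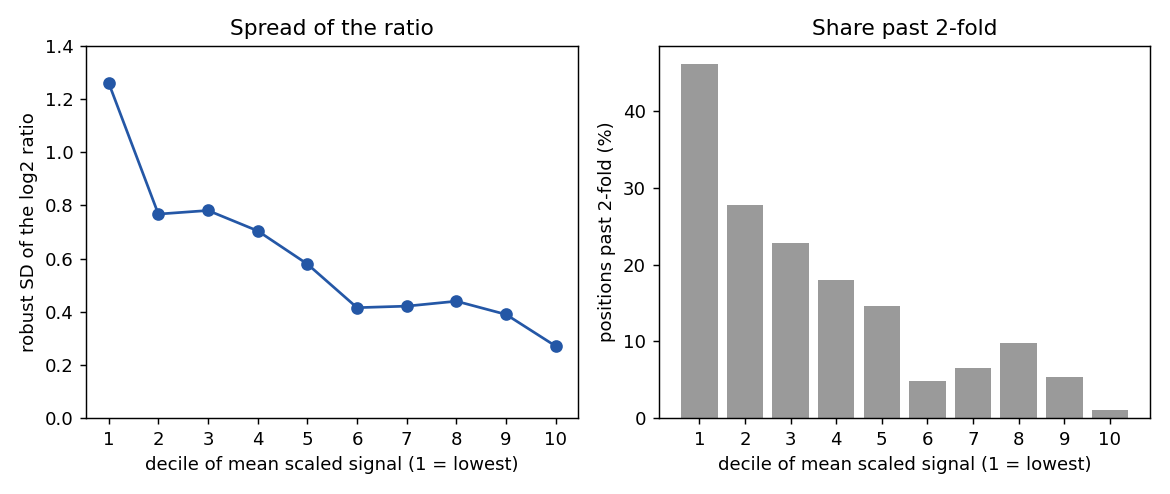
The left panel plots the robust SD of the log2 ratio of RiboBright to cycloheximide, and the right panel the percent of positions past 2-fold, against the decile of mean scaled signal. The robust SD falls from 1.26 in the lowest decile to 0.27 in the highest, and the share past 2-fold from 46.2% to 1.09%, with a second, lower maximum of 9.78% in the eighth.

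A position was called where it lay past the floor and the ratio reached 2-fold. This rule of size called 18 of 460 positions (3.91%), 10 lower in RiboBright (2.17%) and 8 higher (1.74%). The balance moved with the scaling, to 12 higher and 8 lower without scaling, 7 higher and 12 lower with the 90th percentile, and 12 higher and 7 lower with a median that counts zeros. Among the 18, 11 were called under all 9 other choices of scaling, pseudocount and treatment of zeros, 7 lower and 4 higher. The lower positions were C1197, C3566, C3567, A2231, C3033, C3739 and C4029, and the higher ones C4693, A408, A163 and C946. By base, 9 of the 10 lower and 4 of the 8 higher positions were cytidines, as were 259 of the 460 past the floor. Among lower calls, C1197, C3566, C3567, C3033, A2231, C3739 and C3038 had scaled RiboBright below the floor, from 0.640 to 2.01. Among higher calls, A1326, C5054, A3663 and A163 had scaled cycloheximide below it, from 1.39 to 2.23. These calls passed the floor through the other library.

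Among called positions, C1197 and C3566 had the ratios farthest from 0. The signal at C1197 was 0.073 in RiboBright and 0.523 in cycloheximide, which placed it at rank 1148 and rank 245 of the 1838 positions. The log2 ratio was -2.79, from scaled signals of 0.640 and 5.03. C1197 lies in a GC-rich stretch near the end of the expansion segment 7 region, and the RiboBright value of 0.073 recurs at C1188, with 0.074 at C1206 and 0.075 at C1202. In the 36 nt shown around it, RiboBright was at 0 at 7 of 17 positions and cycloheximide at 2. C1182, in the same stretch, had 0.360 in RiboBright and 0.738 in cycloheximide, with a log2 ratio of -1.14. The RiboBright value at C1182 was 4.93 times the lowest value above 0 within 25 nt, whereas the cycloheximide value was 52.7 times its own. Neighbours went both ways, with 11 of the 17 positions below 0. C1181 had 0.715 in RiboBright against 0.795 and C1180 0.216 against 0.316, while C1183 had 0.218 against 0.043 and A1175 0.222 against 0.062.

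C3566 and C3567 are adjacent cytidines in the expansion segment 27 region. The signal at C3566 was 0.077 under RiboBright against 0.503 under cycloheximide, a log2 ratio of -2.67, and C3567 had 0.153 and 0.486, a log2 ratio of -1.73. RiboBright had 0.074 at C3576 and C3577 and was at 0 at C3569, C3571 and C3574. At these 3 positions cycloheximide had 0.218, 0.134 and 0.156. C3569 had the highest cycloheximide signal of all positions listed at 0 in RiboBright alone, of which there were 108 with a median cycloheximide signal of 0.0415. C3561, close by, had 0.138 in RiboBright and 0.012 in cycloheximide. Low RiboBright values in this stretch thus recurred at 0 and at 0.074, with 0.077 at C3566, and the depth of reads behind them is unknown.

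At C4029, C3739, C3033 and A2231 the RiboBright value was 13.5, 9.74, 7.90 and 6.52 times the lowest value above 0 within 25 nt. RiboBright was at 0 at 3 of 23, 1 of 25, 4 of 21 and 5 of 22 other positions there. C4029 had 0.378 in RiboBright and 0.800 in cycloheximide, a log2 ratio of -1.19. Of the 10 positions shown around it, 6 were below 0. The reactive cytidines C4028, with 1.947 in RiboBright and 1.677 in cycloheximide, and C4033, with 0.918 and 0.873, had ratios of 0.08 and -0.06. The adjacent C4030 had -0.33, and C4024 and C4025 were at 0 in RiboBright. C3739 had 0.185 and 0.497, a log2 ratio of -1.50, and lies 224 nt from the nearest A or C without a value. A2231 had 0.176 and 0.563, with a log2 ratio of -1.75, and lies 5 nt from a missing value. C3033 had 0.158 and 0.542, with a log2 ratio of -1.84, and lies 6 nt from one. C962 and C3038 were at -1.02 and -1.05, and passed the rule under 3 of the 9 other choices.

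C4693 and A408, higher in RiboBright, lay in stretches where neither library had a 0 within 25 nt. C4693, in domain VI of the RNA, had 0.893 in RiboBright and 0.307 in cycloheximide. The log2 ratio of 1.38 was the highest of the 18, and the RiboBright value was 74.4 times the lowest of the 27 positions within 25 nt. A4692, just before it, had 0.598 and 0.422, and C4695 had 1.169 and 1.254. C4696 had 0.040 against 0.090, a log2 ratio of -1.10 below the floor. The log2 ratio was thus highest at C4693 itself, with 0.36 at A4692 and -0.23 at C4695.

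A408 had 1.156 in RiboBright and 0.488 in cycloheximide, ranks 76 and 262, and a log2 ratio of 1.10. Its neighbours leaned the same way. A410 had 1.791 and 1.034, a log2 ratio of 0.65, and A407 had 0.140 and 0.071, a log2 ratio of 0.76. A427 had 1.771 and 1.062, with 0.60, and of the 9 positions shown around A408 only C414 was below 0. In scaled signal the differences of 5.77 at A410, 5.45 at A408 and 5.32 at A427 were among the 5 largest rises of the whole RNA, beside 6.99 at A4523 and 5.51 at C3788. The next nucleotides toward the 3′ end open a stretch where RiboBright had few values, and A408 lies 25 nt and A427 6 nt from a missing one.

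C936 had 0.953 in RiboBright and 0.414 in cycloheximide, and C946 had 0.652 and 0.269, with log2 ratios of 1.05 and 1.12. Both lie in the expansion segment 7 region, where neighbours again diverged in both directions. A935 had 0.351 and 0.131, while A932 had 0.070 and 0.231. C934 had 1.028 and 0.922. A163 had 0.589 and 0.232, a log2 ratio of 1.18, A3663 had 0.456 and 0.202, and C5054, near the 3′ end of the RNA, had 0.387 and 0.153.

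**Figure D3:**
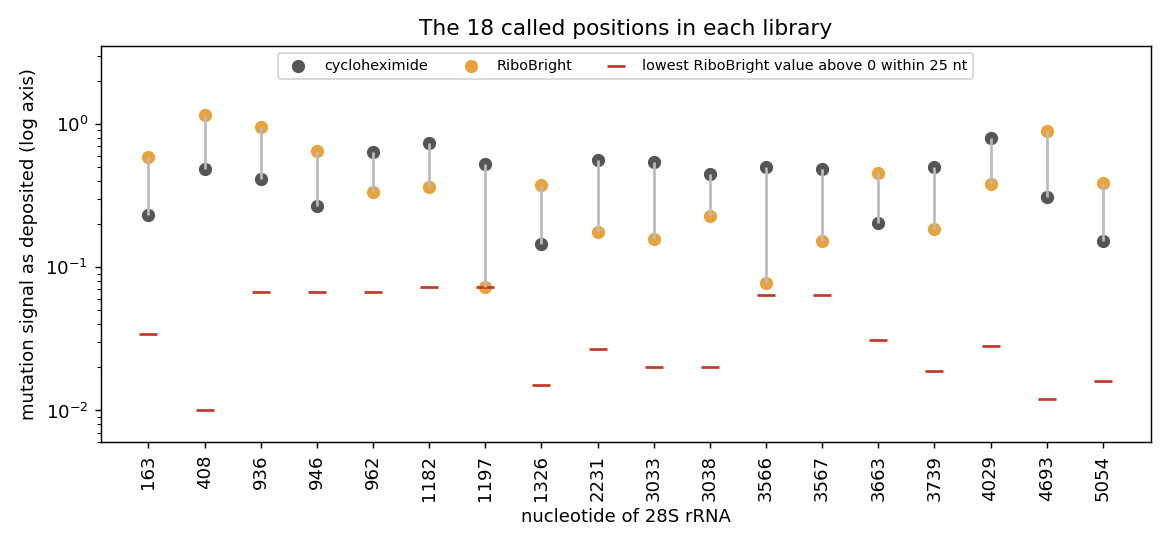
The 18 called positions, in order along 28S rRNA, with the deposited signal in RiboBright and in cycloheximide on a log axis and, as a red bar, the lowest RiboBright value above 0 within 25 nt. At C1197, C3566 and C3567 the RiboBright signal lies close to that lowest value, and at A408 and C4693 far above it.

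The largest falls in scaled signal were not at called positions. They were -13.5 at A1322, -8.38 at C1594, -8.27 at A1964, -6.95 at C4252 and -6.83 at A3702. The first 4 are among the 20 highest peaks, where such differences are fractions of the signal, with log2 ratios from -0.31 to -0.11. A3702 was different in kind, at 1.031 in RiboBright and 1.651 in cycloheximide, ranks 90 and 35, and a log2 ratio of -0.80.

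The N1-methyladenosine A1322 is misread without any dimethyl sulfate, because its methyl group blocks pairing. It had nearly equal signal in both libraries, but nucleotides just 3′ of it did not. A1326 was called higher, at 0.376 in RiboBright and 0.145 in cycloheximide. A1324, chosen after its value was seen, had 0.374 and 0.032, a log2 ratio of 3.05 with a mean below the floor. A1323 between them and A1322 was at 0 in RiboBright and at 0.044 in cycloheximide. Of the 16 positions shown around A1322, 5 were below 0 and 11 above.

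At the E site, C4341 had a signal of 0.146 in RiboBright and 0.212 in cycloheximide, ranks 699 and 488 of the 1838 positions. The scaled signals were 1.28 and 2.04, where 1 is the median nucleotide of the library. The log2 ratio was -0.63, and from -0.65 to -0.49 over the alternatives tried. Of 669 other positions within a factor of 2 in mean scaled signal, 160 (23.9%) had a ratio at least as large in size, and the middle 95% of their ratios ran from -1.23 to 1.15. These positions share both libraries and are not replicates, so whether the compounds differ at C4341 was not tested. Its mean signal lay below the floor, so C4341 could not be called.

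The rest of the E site had 21 A and C. In the first arm, C4349 was the most reactive, at 0.851 in RiboBright and 0.969 in cycloheximide. A4348 had 0.208 and 0.253, and C4342, the base after C4341, 0.017 and 0.032. C4332 and C4335 had low signals that differed in opposite directions, at 0.015 against 0.049 and at 0.107 against 0.049. In the second arm, A4363 had 0.428 and 0.459 and A4366 had 0.446 and 0.332. C4365, between them, had 0.135 in RiboBright and 0.258 in cycloheximide. Its log2 ratio of -1.01 reached 2-fold, with a mean scaled signal of 1.83 that was below the floor. Over all 22 positions the median ratio was -0.23, against -0.16 for the whole RNA, and 14 were below 0 (13 to 16 with other scalings). The 3 past the floor had ratios from -0.32 to 0.29. Of these 3, 0 were called, which the share of 3.91% over the whole RNA would also give.

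**Figure D4:**
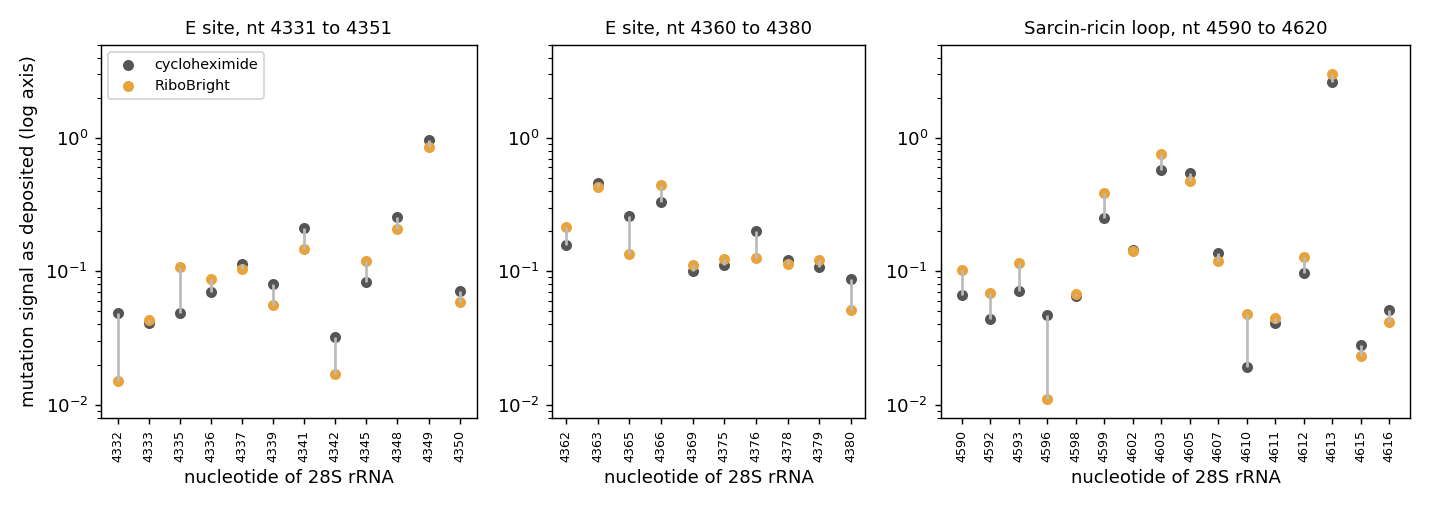
The deposited signal of each A and C in both arms of the E site and in the sarcin-ricin loop, on a log axis, with RiboBright in orange and cycloheximide in grey and a line joining both values of a nucleotide. At C4341 the values are 0.146 and 0.212, and the widest gaps on the log axis are at weak positions such as C4332 and C4596.

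At the catalytic and factor-binding sites 0 of 6 positions past the floor were called, a number too small to set against the 3.91% of the whole RNA. In the peptidyl transferase centre, A4397 had 0.124 in RiboBright and 0.151 in cycloheximide. C4398 had 1.517 and 0.989, a log2 ratio of 0.48, and A4548 had 0.377 and 0.259, a log2 ratio of 0.40. The uridines U4452, U4530 and U4531 carry no value, since the table lists A and C alone. In the sarcin-ricin loop, A4605, the adenosine whose base ricin removes, had 0.474 and 0.542, a log2 ratio of -0.32. C4603 had 0.751 and 0.579, A4599 had 0.386 and 0.252, and C4613, the highest of the loop region, 3.036 and 2.618. The 4 positions past the floor had ratios from -0.32 to 0.47. The median over the 16 positions was 0.04, and it was 0.20 above that of the whole RNA under the scaling used and between 0.19 and 0.20 above it under the others. Among these 16, 7 were below 0.

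Along the RNA, the libraries differed most in the expansion segments. In C436 to G1311, which hold expansion segment 7, RiboBright listed 88 A and C, 20.2% of those present, and cycloheximide 376 (86.4%). In A2881 to G3600, which hold expansion segment 27, RiboBright listed 104 of 361 (28.8%) and cycloheximide 198 (54.8%). Elsewhere RiboBright listed between 86.6% and 100% of the A and C of a segment. Cycloheximide alone listed 426 positions and RiboBright alone 0. Of the 426, 379 were cytidines, 288 lay in C436 to G1311 and 94 in A2881 to G3600. Their median cycloheximide signal of 0.110 was close to the 0.104 of shared positions, but 68 of them were at 0 even in cycloheximide, against 9 of 1838. The share of G and C in the 51 nt around them had a median of 82.4%, against 60.8% around shared positions.

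The same segments held the widest ratios among positions that both libraries listed. Past the floor, C436 to G1311 had a robust SD of 0.80 and 5 calls among 34 positions (14.7%), and A2881 to G3600 had 0.46 and 4 among 32 (12.5%), against 3.91% for the whole RNA. All 4 calls of A2881 to G3600 had scaled RiboBright below the floor and passed it only through cycloheximide. C1197, 1 of the 5 in C436 to G1311, did so too. RiboBright was at 0 at 21 of 88 and 22 of 104 listed positions of these segments. Away from them, A1312 to A1850 had a robust SD of 0.22 with 1 call among 64. A2401 to U2880 and C4101 to G4600 had 0 calls among 58 and 52, with robust SDs of 0.31 and 0.42. The 0.42 of C4101 to G4600 was close to the 0.46 of A2881 to G3600. In C3601 to C4100, 1 position was called higher and 2 lower among 46 (6.52%), with a robust SD of 0.25. The segment of the E site and the peptidyl transferase centre, C4101 to G4600, had a Spearman correlation of 0.924, and A2881 to G3600 one of 0.743. Segment medians past the floor ran from -0.30 in A2881 to G3600 to 0.04 in C3601 to C4100. The depth of the libraries is not given, so its part in these spreads was not tested.

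**Figure D5:**
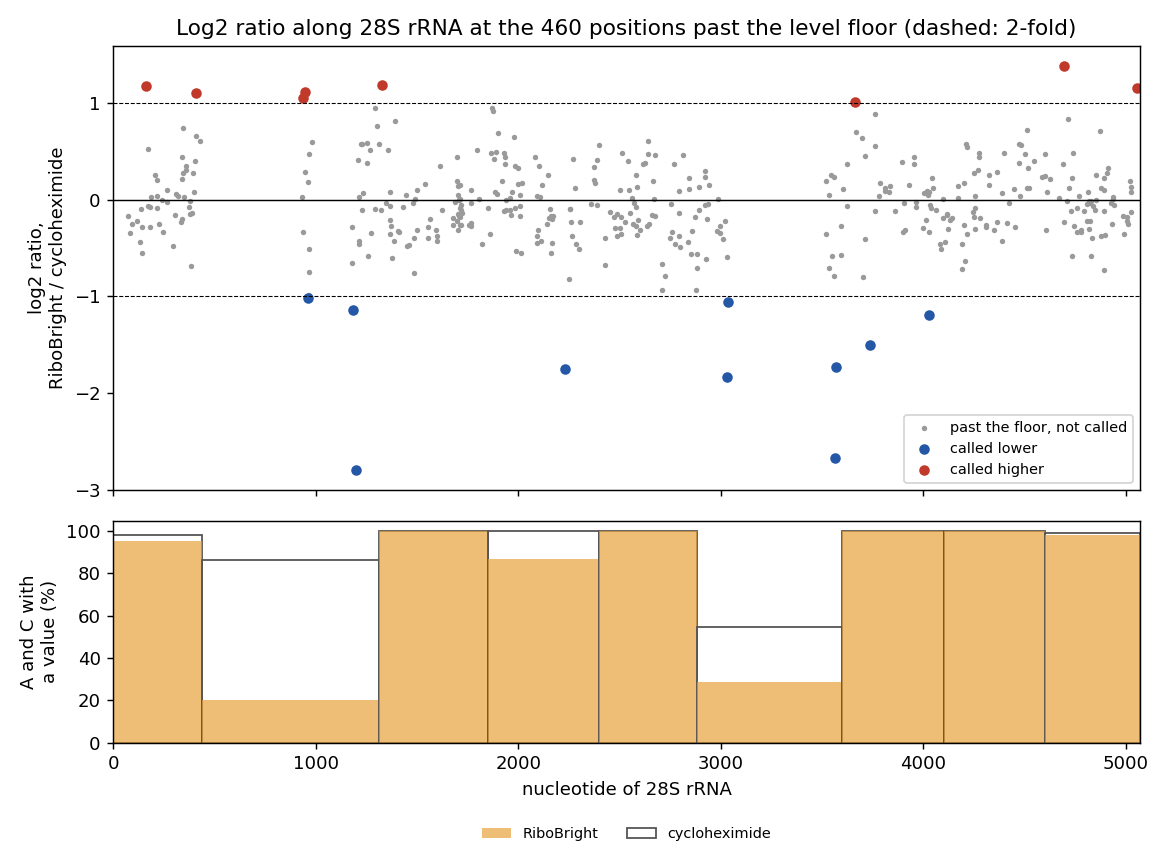
The upper panel plots the log2 ratio of RiboBright to cycloheximide at the 460 positions past the floor along 28S rRNA, with 10 called lower in blue and 8 called higher in red. The lower panel gives the percent of A and C with a value in each of 9 segments, which for RiboBright drops to 20.2% and 28.8% in the segments of expansion segments 7 and 27.

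In windows of 100 nt, the lowest medians were at 901 to 1000 (-0.75), 3501 to 3600 (-0.71) and 1101 to 1200 (-0.70). RiboBright was at 0 at 8 of 31, 15 of 43 and 5 of 13 positions there, and cycloheximide at 0, 1 and 1. Past the floor, the first of these had a median of 0.02 over 13 positions, so its fall was in weak signals, while 3501 to 3600 stayed at -0.46 over 12 positions. The highest medians were at 401 to 500 (0.39 over 14 positions), 4501 to 4600 (0.12) and 1901 to 2000 (0.06). The quartiles of all 42 windows were -0.27 and -0.07. Among positions above 0 in both libraries, the lowest window was 3701 to 3800, at -0.35, and the highest 1201 to 1300, at 0.47.

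Lower and higher calls differed in the composition around them. Of the 10 lower positions, 9 lay in the quartile with the most G and C within 51 nt, from 78.4% to 94.1%, while the last, C3739, had 45.1%. The 8 higher positions lay outside that quartile, between 41.2% at A408 and 76.5% at A163 and C946. Of the 9, C1197, C3566, C3567, A2231, C3033 and C3038 had scaled RiboBright below the floor and passed it through cycloheximide. Of the 8, A1326, C5054, A3663 and A163 passed it through RiboBright. The contrast therefore includes calls admitted through the library where they were high. The median ratio past the floor was -0.19 over 124 positions in the most GC-rich quartile and 0.10 over 114 positions in the least GC-rich one. RiboBright zeros followed the same order, at 65 of 411 positions (15.8%) and 16 of 558 (2.87%). Cytidines after a cytidine were at 0 in RiboBright at 61 of 393 positions (15.5%), and cytidines after a U at 3 of 196 (1.53%). The part of composition in the calls was not tested.

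A larger share of positions near gaps in the table was called. It was 14.9% (10 of 67) where the nearest A or C missing from RiboBright or cycloheximide was within 25 nt, and 2.04% (8 of 393) farther away. Near gaps, C1197, A2231, C3033 and C3038 passed the floor through cycloheximide and C5054 through RiboBright. Farther away, C3566, C3567 and C3739 passed it through cycloheximide and A163, A1326 and A3663 through RiboBright. The 8 far from gaps were C3566, C3567, C3739 and C4029, lower in RiboBright, and A163, A1326, A3663 and C4693, higher. Of them, C3739, C4029, A163, C4693, C3566 and C3567 kept their call under all 9 of those choices. In that order, RiboBright was at 0 at 1 of 25, 3 of 23, 4 of 23, 0 of 27, 11 of 24 and 10 of 23 positions within 25 nt. Near C4029, the RiboBright value of 0.078 occurred at both C4037 and C4038.

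Adenosines and cytidines had similar spreads past the floor, while larger shares of cytidines were called and were at 0 in RiboBright. Past the floor, 201 adenosines had a median ratio of -0.02 and a robust SD of 0.39, with 5 calls (2.49%). The 259 cytidines had -0.11 and 0.33, with 13 calls (5.02%). Over all members RiboBright was at 0 at 16 of 727 adenosines (2.20%) and 98 of 1111 cytidines (8.82%). The Spearman correlation over all members was 0.871 for adenosines and 0.833 for cytidines, and the robust SD 0.51 and 0.58. The median signals of both bases were close, at 0.136 in RiboBright and 0.135 in cycloheximide for adenosines and 0.079 in both for cytidines.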

How the data were processed

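The authors deposited a signal at A and C of 28S rRNA, to 3 decimals, with some A and C left without a value. Per the labels, TGIRT-III copied TRIzol-extracted RNA from random hexamers. The submitters' processing notes name Bowtie2, cutadapt and hg38 with no role or version. For the mutation counter, normalization, coverage minimum, background subtraction and dimethyl sulfate dose, the methods were not given in the sources used here. Depth is unknown, so no counting interval is given, and natural modifications remain in the signal. Within each base and library the mean of values ranked 2 to 10% from the top was between 0.963 and 1.00, so a change shared by all nucleotides may not be visible. The 2 library files matched the table at every position.

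Missing values were left out, and exact zeros kept. Scaling, pseudocount, floor and call rule are given where first used. The robust SD is 1.4826 times the median absolute deviation. Named positions were the 10 largest called rises and falls, the 5 largest of any kind, the 20 highest peaks, functional sites, extreme windows and the bases beside them. Positions, lists and rules were chosen with earlier results of these data known. Scripts ran in Python 3.11.15 with pandas 2.3.3 and scipy 1.17.1 and were tested on simulated data.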

Additional observations from a re-analysis of the deposited data

How the results depend on the processing

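With 1 library a side no library could be left out and no test was possible. No paired analysis was possible because each treatment has 1 library. For lack of a replicate spread, a median or SD was taken as moved from 0.2 on the log2 scale and a correlation from 0.05. The limit was 1.5 times for a count and the exact 95% binomial interval for a share. That interval treats positions as independent, which they are not, so it served as a limit and not as a test. For the ratio at a single position the limit was wider, at the robust SD past the floor, 0.36. Under the alternatives, 47 summary values and 2 of 750 ratios at named positions moved past these limits, and 389 and 748 did not. The ratio at each called position kept its sign, which was no check. Changes of floor or fold leave every ratio as it is, and count among the unmoved. A pseudocount cannot change a sign, and the scalings shifted the median ratio by up to 0.14, against calls at 2-fold or more.

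Against 18 calls (8 higher, 10 lower), a floor at the median gave 51 (27 and 24), a floor at the 90th percentile 2 (2 and 0), no floor 289 (73 and 216), 1.5-fold 60 (27 and 33) and 3-fold 5 (0 and 5). Leaving out positions within 25 nt of a missing value gave 9 (5 and 4), and a floor on the higher signal, chosen after the data were seen, 31 with 17 higher. A pseudocount of 0.5 left 5 higher, and moved C1197 to -2.28 and C3566 to -2.18. The share within 1.5-fold was 80.8% with the floor at the median, 93.5% at the 90th percentile, 67.1% without a floor, 82.6% with a median counting zeros (added later) and 82.4% with the floor on the higher signal. The robust SD without a floor was 0.56, and the Spearman correlation past the 90th percentile 0.804. Calls near and far from missing values were 6.25% and 0% at the 90th percentile, 36.2% and 13.3% without a floor, 31.3% and 9.92% at 1.5-fold, and 4.48% and 0.509% at 3-fold. Without a floor the medians of C436 to G1311 and C3601 to C4100 were -0.28 and -0.18, and away from missing values that of A2881 to G3600 was -0.52. The lowest window was at -0.35 with positions above 0, -0.55 with a pseudocount of 0.5, -1.19 away from missing values and -1.13 with 50 nt. The robust SD of the lowest decile was 0.67, 1.77, 0.45 and 0.94 with positions above 0, pseudocounts of 0.05 and 0.5, and away from missing values. The causes were not tested.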
